A study of Mus musculus with 2 samples.

Results

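The genes examined were those of the transcription factor AP-1 and of a set of immediate early genes: Fos, Fosb, Fosl2, Jun, Junb, Jund, Atf3, Ier2, Ier3 and Ier5. Members were all probe sets that the array annotation gives to these symbols, which came to 13 probe sets for 10 genes, out of 22690 probe sets and 12393 genes on the array. Their transcripts were measured in primitive and in maturing haematopoietic stem cells (HSC) from mouse bone marrow, with 1 Affymetrix array for each population. Per the labels, both populations were untreated, were kept in culture for 30 min and were then sorted by flow cytometry. Mouse strain, age and sort phenotype are not given in the sources used. By the labels' protocols, cDNA primed from the poly(A) tail was amplified by PCR, fractionated by size and cloned in a phage vector, and labelled cRNA was made from the library inserts. An intensity therefore reports the abundance of a transcript in a cloned library.

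AP-1 is a dimer of basic leucine zipper proteins, in which a Jun protein pairs with another Jun protein, with a Fos protein or with a member of the ATF family, and binds DNA at the phorbol ester response element or the cyclic AMP response element. Genes of this kind are called immediate early because growth factors, cytokines and stress switch them on through kinases and ready-made transcription factors, without new protein synthesis. Their transcripts are short-lived, and handling of cells is known to induce them. In bone marrow, Jun proteins take part in myeloid differentiation, and Junb is known to restrain the expansion of stem cells and myeloid cells.

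Intensities had a median of 425.4 in primitive and 454.8 in maturing HSC over all probe sets. All 10 genes were above the floor on both arrays with at least 1 probe set. The floor, an intensity of 440.8, was the pooled median over both arrays, and lower values were set to it. The genes did not move together. Ier2, Junb, Ier3, Fosl2 and Jund were higher in primitive HSC, Ier5, Jun, Fos and Fosb were higher in maturing HSC, and Atf3 read nearly the same on both arrays. These directions held under every scaling run except that to the hybridisation controls, which turned Fosl2 and Jund to the maturing side and put Atf3 at -0.98. Ier2 was the only one of the 10 genes at least 4-fold apart, with 1 gene on the primitive side and 0 on the maturing side. Over the 8852 measured genes, 3.45% were higher in primitive HSC by 4-fold or more and 4.69% were lower there by as much, or 8.13% in either direction, so 1 of 10 is near the background. At 2-fold, 3 genes were higher in primitive HSC (15.6% of all genes) and 1 in maturing HSC (17.6% of all genes). The median log2 ratio of primitive over maturing was 0.27 over the 10 genes and 0.07 over all measured genes, whose interquartile range was -0.67 to 0.69. With 1 array a group there was no replicate and no test was possible, and the number of arrays limits the precision. The only spread available was that between probe sets of a gene, with an SD of 0.82 on the log2 scale over 1318 genes, which holds no error from cells or libraries. The ratios of Fos, Fosb, Fosl2, Jund and Atf3 lay within 1 such SD of 0, and that of Jun (-0.89) just past it. In sorted populations of this kind, fewer cells that express a gene and less of its RNA per cell cannot be told apart.

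**Figure D1:**
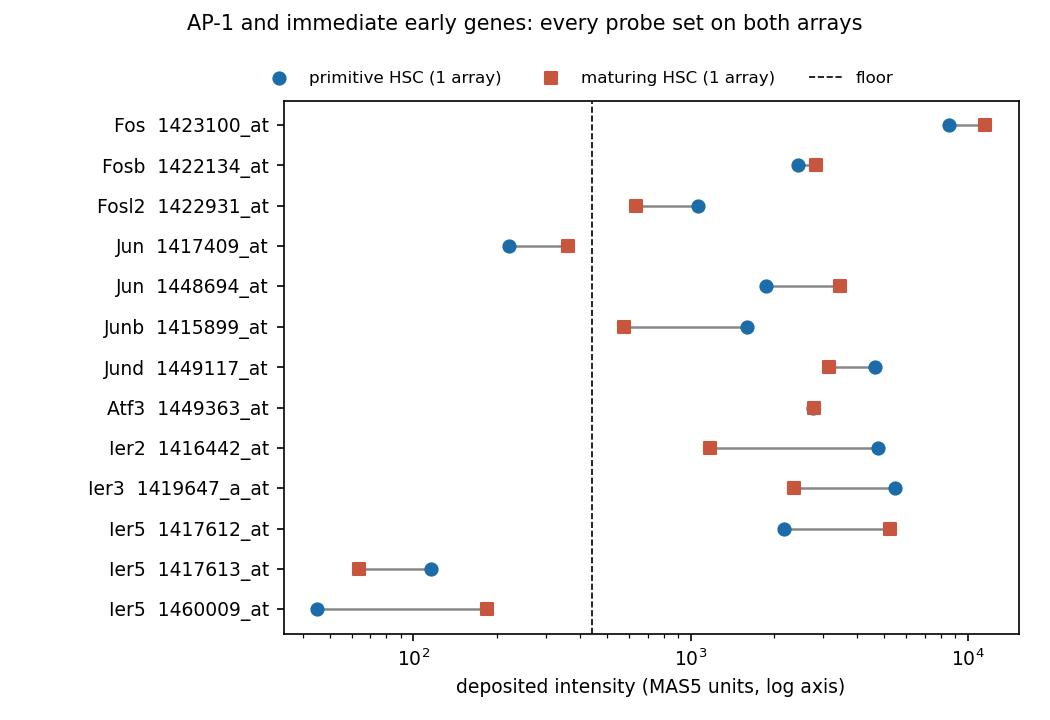
Deposited intensity (MAS5 units, log axis) of all 13 probe sets of the 10 genes in primitive HSC (circles) and maturing HSC (squares), with the floor of 440.8 as a dashed line. The Jun probe set 1417409_at and the Ier5 probe sets 1417613_at and 1460009_at lie under the floor on both arrays, and the widest gap among the others is that of Ier2, from 1177.1 to 4748.8.

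The 3 Jun genes split. Jun, the founding member and the strongest activator of transcription in the family, read 1863.2 in primitive and 3448.9 in maturing HSC with probe set 1448694_at, a log2 ratio of -0.89 (1.85-fold higher in maturing HSC). A second Jun probe set, 1417409_at, read 221.5 and 362.7, and was under the floor on both arrays, so it was not used. Junb, which dimerises like Jun but activates most AP-1 sites more weakly, read 1594.9 in primitive and 574.3 in maturing HSC, a log2 ratio of 1.47 (2.78-fold higher in primitive HSC). The maturing value of Junb was only 1.30 times the floor. With the floor at percentile 75, an intensity of 1026.2, the ratio of Junb was a bound of 0.64. Jund, the member that most cells transcribe without stimulation, read 4631.5 in primitive and 3169.5 in maturing HSC, a log2 ratio of 0.55 that became -0.43 with scaling to the hybridisation controls.

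The difference between 2 log2 ratios from the same pair of arrays does not depend on how the arrays are scaled by a constant. The SD between probe sets (0.82) is for a single ratio, and a difference of 2 ratios has a wider spread, so multiples of it overstate the separation. Log2 ratios of all measured genes had an SD of 1.12, wider than that between probe sets. Differences between genes outside these families were not taken for comparison. Junb minus Jun was 2.36, or 2.87 times that SD. It was 2.38 after quantile normalization, 2.43 after lowess and at least 1.52 with the floor at percentile 75. Jund minus Jun was 1.44, and between 1.34 and 1.44 over the settings. Junb minus Jund was 0.93, near 1 SD between probe sets, and at least 0.09 with the floor at percentile 75. The order Junb, Jund, Jun was the same in every setting run.

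RefSeq promoter windows (build GRCm38.p6) were found for 9 of the 10 genes. The upstream stretches of Jun and Junb are shown because these paralogs had opposite ratios. The Jun stretch is chr4:95052223-95052422 on the minus strand, and the Junb stretch is chr8:84978749-84978948 on the minus strand. Both run 5′ to 3′ and end at the base before the annotated start, with matches to the searched motifs in capitals.
Jun: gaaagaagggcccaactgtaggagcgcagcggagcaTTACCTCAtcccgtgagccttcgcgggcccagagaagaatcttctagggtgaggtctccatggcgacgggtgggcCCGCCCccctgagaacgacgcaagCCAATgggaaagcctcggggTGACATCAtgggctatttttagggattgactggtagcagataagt
Junb: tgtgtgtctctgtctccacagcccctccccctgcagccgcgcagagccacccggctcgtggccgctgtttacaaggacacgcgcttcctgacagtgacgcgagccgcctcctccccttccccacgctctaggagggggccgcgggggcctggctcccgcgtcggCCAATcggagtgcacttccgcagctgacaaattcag
In Jun, the capitals mark TTACCTCA and TGACATCA, the pair of AP-1-like sites through which Jun is known to act on its own promoter, and between them a GC box (CCGCCC, the reverse complement of GGGCGG) and a CCAAT box. TTACCTCA begins 164 bases before the start and TGACATCA begins 45 bases before it. In the 250 bases before the start, on either strand, TTACCTCA was found in 0.73% and TGACATCA in 2.93% of the 32851 promoter windows of the table. In Junb the only capitals are a CCAAT box that begins 36 bases before the start, a motif held by 33.85% of all windows and by 4 of the 9 (Ier3, Ier5, Jun and Junb). These matches describe the letters of the windows.

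Among the Fos genes the differences were smaller. Fos, which cannot dimerise with itself and binds DNA only with a partner, read 8538.5 in primitive and 11542.0 in maturing HSC, a log2 ratio of -0.44 (1.35-fold higher in maturing HSC). Its ratio was -0.76 after quantile normalization and -0.80 after lowess. Fos was in the brightest of 10 equal classes of mean signal, in which the interquartile range of log2 ratios was -0.41 to 1.11. Fosb, a close relative of Fos, read 2448.3 and 2836.1, a log2 ratio of -0.21. Fosl2, also called Fra-2, a Fos protein that accumulates later than Fos and lacks its strong activation domain, read 1067.9 in primitive and 638.2 in maturing HSC. Its log2 ratio was 0.74, and -0.23 with the hybridisation controls as the scale. Fosl2 was the only one of the 3 on the primitive side, except with that scaling, which left all 3 below 0. Fosl2 minus Fos was 1.18, and up to 1.64 over the settings. With the floor at percentile 75, which the maturing value of Fosl2 did not reach, it was at least 0.49.

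The upstream stretch of Fos, chr12:85473690-85473889 on the plus strand, is shown as that of the textbook immediate early gene.
Fos: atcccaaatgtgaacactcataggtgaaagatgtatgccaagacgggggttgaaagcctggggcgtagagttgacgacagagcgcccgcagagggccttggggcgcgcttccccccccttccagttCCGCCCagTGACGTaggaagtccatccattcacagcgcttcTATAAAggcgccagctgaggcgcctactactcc
The capitals mark a GC box, the letters TGACGT of the cyclic AMP response element that is known in this promoter, and the TATA box, TATAAA. The letters TGACGT begin 66 bases and the TATA box begins 33 bases before the start. The letters TGACGT were found in Fos and Atf3 among the 9 windows and in 6.47% of all windows. The exact letters TATAAA were found in Fos alone among the 9 and in 12.37% of all windows. Other spellings of the TATA box were not searched for, such as the letters tatataag in the Ier5 stretch shown further down. The full element TGACGTCA, which contains TGACGT, was in 0 of the 9 windows (1.55% of all), the element TGACTCA in 0 (4.46% of all) and the CArG box bound by serum response factor in 0 (1.47% of all). The search covered only the 250 bases before the start, so elements further upstream, in Fos or the other genes, could not be found. GGGCGG was found in 7 of the 9 and in 32.74% of all windows. The windows of the 9 genes held between 47.6% (Jund) and 68.8% (Fosb) G and C, against a median of 52.4% over the table.

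Atf3, a stress-induced member of the ATF family that pairs with Jun proteins and represses as a homodimer, read 2757.0 in primitive and 2776.9 in maturing HSC. Its log2 ratio was -0.01, the nearest to 0 of the 10, and its sign turned to 0.08 after quantile normalization and 0.02 after lowess. A total of 46.8% of measured genes had a ratio at least as low.

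The Ier genes held both ends of the range. Ier2, which encodes a small nuclear protein induced by growth factors, read 4748.8 in primitive and 1177.1 in maturing HSC, 4.03-fold apart, with a log2 ratio of 2.01. This lies just past the 4-fold threshold of 2 on the log2 scale, and Junb (1.47) was the next gene inside it. Centring the median ratio on 0 gave 1.95 for Ier2, under the threshold, and scaling to the hybridisation controls gave 1.04. Of all measured genes, 298 (3.4%) had a ratio at least as high as that of Ier2, and among the 885 genes in its class of mean signal (of 10 classes) the share was 7.2%. Ier3, also called IEX-1, which modulates ERK signalling and cell survival, read 5452.3 in primitive and 2356.3 in maturing HSC, a log2 ratio of 1.21 (2.31-fold). Its ratio was 0.24 with scaling to the hybridisation controls.

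Ier5, which is known to activate the heat shock factor HSF1 through the phosphatase PP2A, went the other way. Probe set 1417612_at read 2179.4 in primitive and 5239.9 in maturing HSC, a log2 ratio of -1.27 (2.40-fold higher in maturing HSC). The other Ier5 probe sets were under the floor on both arrays, with 115.5 in primitive and 63.8 in maturing HSC for 1417613_at and 44.9 and 184.8 for 1460009_at. The ratio of Ier5 therefore rests on 1 of 3 probe sets. It was -2.24, past 4-fold, with scaling to the hybridisation controls. Ier2 minus Ier5 was 3.28, the widest of the 10 differences taken, and ran from 3.28 to 3.35 over the settings that gave a value. It was 3.98 times the SD between probe sets, which is for a single ratio and narrower than the spread of a difference. Against the SD of 1.12 over all measured genes the multiple is smaller, and pairs of other genes were not compared. Ier3 minus Ier5 was 2.48, and Ier2 minus Ier3 was 0.80, within 1 SD between probe sets.

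Upstream stretches of Ier3 (chr17:35821513-35821712 on the plus strand) and Ier5 (chr1:155099637-155099836 on the minus strand) are shown for their opposite ratios.
Ier3: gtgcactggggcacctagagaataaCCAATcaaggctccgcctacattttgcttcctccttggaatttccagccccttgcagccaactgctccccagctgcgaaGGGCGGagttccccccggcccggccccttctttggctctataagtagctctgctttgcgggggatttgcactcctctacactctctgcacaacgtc
Ier5: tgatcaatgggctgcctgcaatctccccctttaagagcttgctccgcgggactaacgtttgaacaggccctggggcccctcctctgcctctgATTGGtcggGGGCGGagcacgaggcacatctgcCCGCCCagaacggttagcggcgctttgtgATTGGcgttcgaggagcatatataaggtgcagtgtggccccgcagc
In Ier3 the capitals mark a CCAAT box and a GC box, and in Ier5 a pair of each, with ATTGG as the reverse complement of CCAAT. A further CCAAT box of Ier3 begins 244 bases before the start, upstream of the stretch shown. Both genes with opposite ratios thus carried the same kinds of match, CCAAT in 33.85% and GGGCGG in 32.74% of all windows. Neither window held TGACGTCA, TGACTCA or TGACGT.

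**Figure D2:**
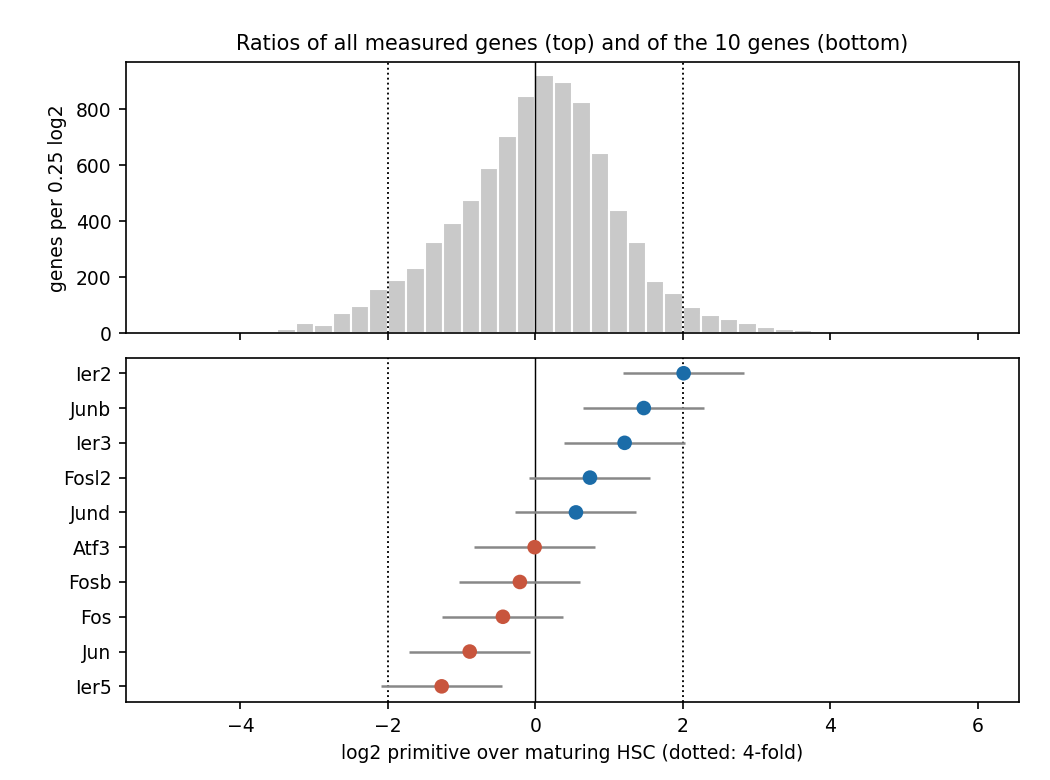
Top, histogram of log2 primitive over maturing for the 8852 measured genes in bins of 0.25. Bottom, the 10 genes in order of their ratio, with bars of 1 SD between probe sets (0.82) on each side and dotted lines at 4-fold; Ier2 (2.01) touches the upper line and Ier5 (-1.27) is the lowest.

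**Figure D3:**
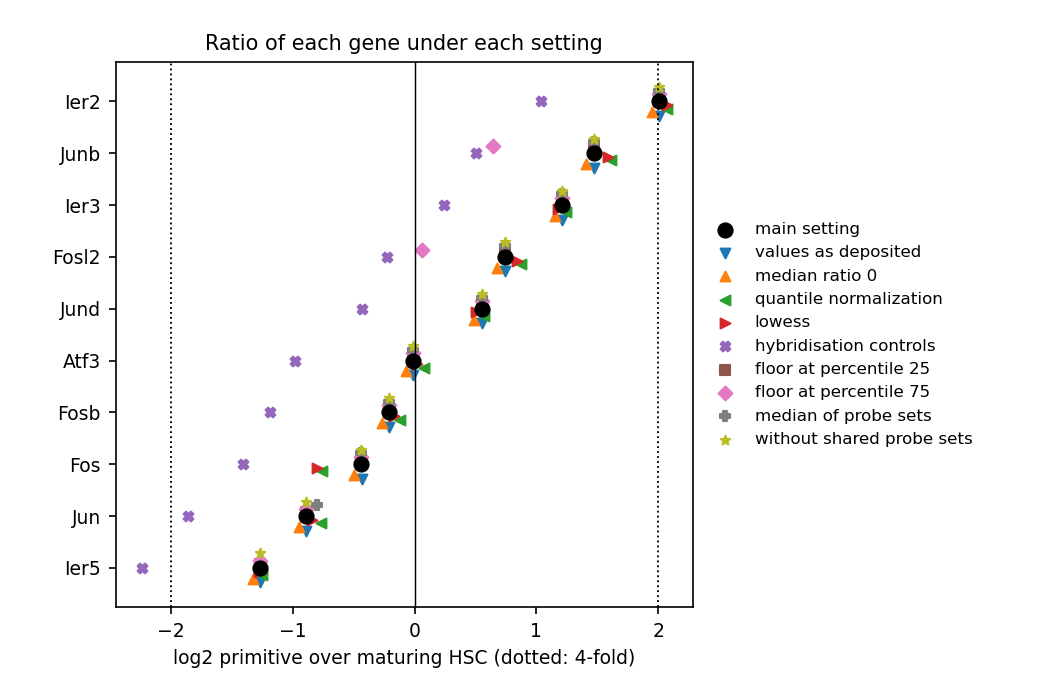
Log2 primitive over maturing of each gene in the main setting (black circles) and under 9 alternatives, without the median of probe sets for Ier5, which was under the floor. Scaling to the hybridisation controls (crosses) shifts every gene toward the maturing side, and only Ier2, Junb and Ier3 stay above 0. The floor at percentile 75 (diamonds) leaves only lower bounds for Junb (0.64) and Fosl2 (0.06).

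Genes around AP-1 were taken from 7 lists of related genes, which had 98 measured genes in all. Past 4-fold, 4 of them were on the primitive side and 8 on the maturing side, against 3.45% and 4.69% of all measured genes. With scaling to the hybridisation controls the counts were 2 and 21 in these lists and 91 and 1231 of 9101 measured genes overall. Their median log2 ratio was -0.05, against 0.07 over all measured genes. These lists had been chosen with earlier results of these data known, and no list was tested.

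Of 20 other leucine zipper factors that pair with AP-1 proteins or share their sites, 17 were measured, with a median of 0.52. This median was -0.19 with scaling to the hybridisation controls. Nfe2, the erythroid and megakaryocytic factor that pairs with small Maf proteins, read 16929.1 in primitive and 1889.3 in maturing HSC (8.96-fold). Atf2, a partner of Jun that stress kinases activate, was under the floor in primitive HSC, where it read 254.1, and read 2007.9 in maturing HSC, at least 4.55-fold higher. A pair of further Atf2 probe sets gave bounds of -1.32 and -2.05, and the remaining probe set was under the floor on both arrays. The remaining 15 measured genes did not reach 4-fold at this floor, but 8 of them are bounds, among them Batf (1534.6 and 115.5, a bound of 3.48-fold toward primitive HSC), and 6 genes of the list passed 4-fold toward primitive HSC with the floor at percentile 25.

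Of 22 other immediate early transcription factors, 18 were measured, with a median of 0.01, 0 past 4-fold toward primitive and 2 toward maturing HSC. Bhlhe40, a circadian and stress repressor, read 515.4 and 2982.2 (5.79-fold higher in maturing HSC). Klf10, induced early by transforming growth factor beta, read 96.4 and 2037.5, a bound of 4.62-fold toward maturing HSC. The following genes were chosen after their values had been seen, as the best-known companions of Fos in immediate early responses. Egr1, the zinc finger factor that serum induces together with Fos, read 8821.6 in primitive and 21710.9 in maturing HSC, a log2 ratio of -1.30. The nuclear receptor gene Nr4a1 read 14315.5 and 14321.2, and the MAP kinase phosphatase gene Dusp1 read 5099.4 and 5095.5, both nearly equal on the arrays. Relatives of these genes differed from them. Egr3 (1.78), Egr4 (a bound of 1.27), Nr4a2 (0.76) and Dusp2 (0.7) were higher in primitive HSC, and Dusp6 (-0.56) in maturing HSC. Egr2 and Nr4a3 were under the floor on both arrays.

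The list of immediate early genes that encode no transcription factor held 37 symbols, with Ccn1 and Ccn2 also entered under their older symbols Cyr61 and Ctgf. Of its genes, 26 were measured, with a median of -0.31 and 3 genes at least 4-fold apart on each side. Trib1, a pseudokinase that guides protein degradation, read 2621.0 and 82.3, a bound of 5.94-fold toward primitive HSC, and its second probe set gave a bound of 0.28. Btg2, an antiproliferative gene, read 18271.8 and 3597.6 (5.08-fold higher in primitive HSC), with its second probe set at 0.37. In the other direction stood the polo-like kinase gene Plk2, with 591.5 and 3823.3 (6.46-fold). The NF-kappaB regulator gene Nfkbiz read 880.2 and 5484.5 (6.23-fold higher in maturing HSC), while its second probe set went the other way, at 0.84.

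Kinases upstream of AP-1 had a median of -0.79 over 10 measured genes of 19, with 0 past 4-fold toward primitive and 1 toward maturing HSC. This was Mapk14, the stress kinase p38 alpha, which read 582.0 and 5107.8 (8.78-fold). A pair of its other probe sets gave bounds of 0.75 and 0.99 on the primitive side, so the direction of Mapk14 depends on the probe set. Regulators of Jun and Fos protein (13 symbols, with Cop1 also entered as Rfwd2) had a median of -0.93 over 7 measured genes, with 0 past 4-fold. With the floor at percentile 75 the medians were -0.47 for the kinases and -0.29 for the regulators. With scaling to the hybridisation controls they were -1.77 and -1.79. Serum response and CREB factors had a median of -0.01 over 7 measured genes, with 0 at least 4-fold apart. Their list held 11 symbols, with Mrtfa and Mrtfb also entered as Mkl1 and Mkl2. Textbook AP-1 target genes had a median of 0.05 over 13 measured genes of 20, and 1 was at least 4-fold apart, the adhesion receptor gene Cd44 (428.4 and 6331.6, at least 14.36-fold higher in maturing HSC). Its second probe set was under the floor on both arrays (259.0 and 117.2), and with the median of probe sets no gene of this list passed 4-fold.

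**Figure D4:**
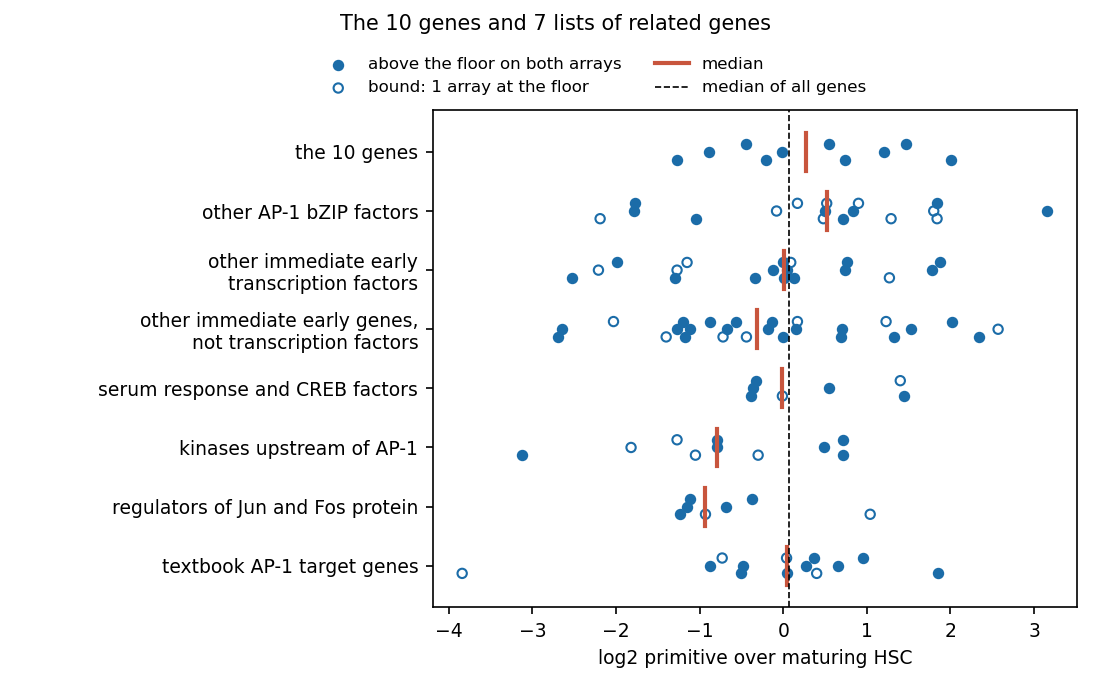
Log2 primitive over maturing of the 10 genes and of the measured genes of 7 lists, with filled points for genes above the floor on both arrays, open points for bounds, a bar at each median and a dashed line at the median of all genes (0.07). The 10 genes spread from -1.27 to 2.01 around a median of 0.27, and the medians of the lists run from -0.93 to 0.52. With scaling to the hybridisation controls the median of the 10 genes was -0.71, and those of the lists ran from -1.79 to -0.19.

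The labelled cell type was checked on 12 HSC marker genes on the array, each above the floor on at least 1 array, with a summed intensity of 35674 in primitive and 36020 in maturing HSC. Single HSC markers differed, with log2 ratios from -1.44 (Meis1, a bound) to 2.61 (Procr). Summed neutrophil and monocyte markers (14 of 15 on the array above the floor) read 178948 and 101767, macrophage and dendritic cell markers (8 of 10) 8662 and 3200, and T and natural killer cell markers (6 of 10) 57012 and 11876, with Cd3e, Cd3g, Cd4 and Cd2 at the floor. B cell markers (6 of 8, with Pax5 and Ebf1 at the floor) read 2061 and 7167. Erythroid markers (2 of 6) read 3557 and 1867, megakaryocyte markers (4 of 7) 6633 and 6517, and stromal and endothelial markers (5 of 8) 3047 and 2777. These sums rest on few bright genes. In the T and natural killer list 4 measured genes were higher in primitive HSC and 2 in maturing HSC, with 3 and 0 past 4-fold. Ccl5 read 37798.4 and 1510.8 and Cd3d 8673.7 and 44.2 (a bound of 4.3), while Nkg7 and Cd8a had ratios of -0.33 and a bound of -0.87. In the neutrophil and monocyte list 9 measured genes were higher in primitive HSC and 5 in maturing HSC, with 0 and 2 past 4-fold (Mpo and Csf3r, both bounds of -2.55). In the macrophage and dendritic cell list all 8 measured genes were higher in primitive HSC, with 0 past 4-fold. In the B cell list 1 measured gene was higher in primitive HSC and 5 in maturing HSC, with 0 and 1 past 4-fold. The myeloid and T and natural killer sums were higher in primitive HSC, as were Ier2, Junb and Ier3. The B cell sum was higher in maturing HSC, as were Ier5 and Jun. The part of such cells in the ratios of the 10 genes was not tested. The 18 hybridisation control probe sets leaned to the primitive side, with log2 ratios from 0.52 to 1.89 around a median of 0.97. Control probe sets for Gapdh read 0.65 at the 5′ end and 0.69 at the 3′ end of the transcript on the log2 ratio scale, and those for beta-actin -0.05 and 0.32. Scaling to the hybridisation controls moved the median over genes measured on both arrays by -0.77.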

How the data were processed

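The deposited values are intensities on a linear scale, made by the authors with MAS5 per the submitters' processing notes (version not given in the sources used here). This method merges the probe pairs of a probe set and scales the array, so a difference in total RNA cannot be seen. Genes were named from the platform annotation, for the 20380 probe sets with 1 symbol. Both arrays were rescaled to 1 trimmed mean (2%), the pooled median intensity of non-control probe sets (440.8) served as a floor for lower values, and a gene was represented by its brightest probe set, by the mean over both arrays. Ratios are log2 primitive over maturing. A side at the floor gives a bound. The members and lists were chosen with earlier results of these data known, and some motifs after the promoters had been read. All 10 members were named, with every probe set, and from each list up to 4 genes past 4-fold. Batf, Egr1 and its relatives, and the Nr4a and Dusp genes were named outside this rule, with only the probe set used for the gene. The steps were tested on simulated data. Python 3.11.15, numpy 2.4.6, pandas 2.3.3, statsmodels 0.14.6 and matplotlib 3.10.9 were used. The alternatives were other scalings, floors, thresholds and choices of probe set.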

Additional observations from a re-analysis of the deposited data

How the results depend on the processing

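Scaling to the hybridisation controls gave 0 of the 10 genes at least 4-fold higher in primitive HSC, 1 (Ier5, at -2.24) higher in maturing HSC, and a median of -0.71. Centring the median ratio on 0 and the 8-fold threshold each gave 0 higher in primitive HSC, and the 2-fold threshold gave 3 and 1. Under the other alternatives the counts stayed at 1 and 0, and the median of the 10 genes ran from 0.02 (floor at percentile 75) to 0.55 (median of probe sets, without Ier5, which then gave no value). Over the lists, the counts higher in primitive and in maturing HSC were 4 and 8. They were 2 and 21 with the hybridisation controls, 11 and 14 with the floor at percentile 25, 2 and 3 with it at percentile 75, 2 and 4 with a gene's median probe set, and 18 and 26 at 2-fold. Over all genes, the counts at least 4-fold higher in primitive and in maturing HSC turned from 305 and 415 to 91 and 1231 with the hybridisation controls and to 165 and 126 with the floor at percentile 75. No paired analysis was possible because each group has 1 array. Each of the 10 ratios rests on 1 measured probe set, and the spread among probe sets of a gene (an SD of 0.82) is nearly 2-fold.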
